A study of Mus musculus with 14 samples.

Results

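Izumo1r, Cd9, Cd81 and Astl, which act at sperm binding, membrane fusion and the block to further sperm, were followed across mouse oocytes with and without the mitochondrial unfoldase Clpx. They were chosen by gene symbol, all 4 were listed at both stages, and they are 4 of the 18562 genes in the count tables. The ovulated CKO group had 3 libraries, from oocytes that had left the follicle in Clpx fl/fl; Zp3-Cre mice, and the ovulated WT group had 3 libraries from Clpx fl/fl mice with no Cre. The GV CKO and GV WT groups had 4 libraries each, with the same genotypes, from germinal vesicle (GV) oocytes, the immature stage before meiosis resumes. All mice thus carried the floxed gene. Cre was driven by the Zp3 promoter, which growing oocytes switch on, and no group carried Cre without the floxed gene. The labels state neither the number of oocytes or animals behind a library nor the age of the mice. P-values therefore measure the spread between these libraries, which may be technical.

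Izumo1r encodes JUNO, the GPI-anchored receptor on the egg surface that binds IZUMO1 on sperm. Cd9 and Cd81 encode tetraspanins, membrane proteins that organise partner proteins into patches; CD9 sits on the egg's microvilli and is needed for sperm fusion in mice, and CD81 has a partly overlapping role. Astl encodes ovastacin, a metalloprotease stored in cortical granules, which is released after fertilisation and cleaves ZP2 of the zona pellucida, so that further sperm no longer bind. Fully grown oocytes make little new RNA, and their stored mRNAs are shortened, lengthened or degraded at the poly(A) tail during maturation.

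A site of 30 bases holding the polyadenylation signals is shown from each transcript, from GENCODE on GRCm38. Tail lengths were not measured, and a part of tail control in the levels below was not tested. For Izumo1r, Cd9 and Astl these are the last 30 bases, and the Cd81 site starts 59 bases before the transcript's end. Capitals mark the polyadenylation signals AATAAA and ATTAAA, and bases run 5′ to 3′ on the transcript strand.
Izumo1r: gtaccttcAATAAAaggctaggaaactcta
Cd9: tttgatacatAATAAAagattataacagtg
Cd81: aATTAAAtcttgaaacagtcatttAATAAA
Astl: ggtagaAATAAAgttgggtgtttgcttcat
All 4 transcripts held AATAAA within their last 100 bases, as did 66.8% of 11820 genes tested over the 14 libraries together. Those genes had a curated coding transcript with a complete annotated end and at least 100 bases after the coding sequence. None of the 4 held TTTTAT or TTTTAAT there, the letters of the cytoplasmic polyadenylation element, which 20% of those genes held. Other annotated ends were not searched.

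Izumo1r (gene ID 64931) lies at chr9:14885814-14903951 on the minus strand and Cd9 (gene ID 12527) at chr6:125460266-125494760 on the minus strand, in the RefSeq annotation of GRCm38.p6. Cd81 (gene ID 12520) lies at chr7:143052750-143067930 and Astl (gene ID 215095) at chr2:127338639-127357655, both on the plus strand. In the GENCODE annotation of GRCm38, Cd9 overlaps Gm28809 and Gm26728, and Cd81 overlaps R74862, all on the opposite strand. Whether strand was used in counting is not given in the sources used here, so reads of those transcripts cannot be told apart from reads of Cd9 and Cd81. Izumo1r and Cd9, whose profiles were the closest pair among the 4, are shown with their promoters from RefSeq (GRCm38.p6, 250 bases before to 50 after the start), with the E-box CANNTG in capitals.
Izumo1r: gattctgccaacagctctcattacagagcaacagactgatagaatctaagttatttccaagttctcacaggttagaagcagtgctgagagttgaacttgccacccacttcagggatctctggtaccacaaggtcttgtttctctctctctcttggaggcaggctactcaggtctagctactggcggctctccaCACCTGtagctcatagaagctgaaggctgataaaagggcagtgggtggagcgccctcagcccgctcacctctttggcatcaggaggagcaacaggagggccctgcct
Cd9: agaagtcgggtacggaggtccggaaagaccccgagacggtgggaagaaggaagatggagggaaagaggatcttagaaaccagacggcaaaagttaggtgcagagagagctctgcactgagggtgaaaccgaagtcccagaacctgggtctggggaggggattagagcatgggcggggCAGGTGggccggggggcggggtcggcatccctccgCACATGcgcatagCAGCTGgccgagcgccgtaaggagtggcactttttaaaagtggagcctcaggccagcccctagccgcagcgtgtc
The Izumo1r promoter, at chr9:14903718-14904017, held 1 E-box and 3 CpG dinucleotides, and the Cd9 promoter, at chr6:125494711-125495010, held 3 E-boxes and 18 CpG dinucleotides. Of 32851 promoters in the table, 72.3% held at least 1 CANNTG, a motif that reads the same on both strands. By CpG count the Izumo1r promoter lay at percentile 23.3 of these promoters and the Cd9 promoter at percentile 70.3. The Cd81 promoter held 1 E-box and 23 CpG dinucleotides (percentile 78.5). The 2 Astl promoters in the table held 0 and 3 E-boxes, with 5 and 1 CpG dinucleotides (percentiles 38 and 5.43). A part of these promoters in the levels below was not tested.

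Total expected counts per library were between 25086506 and 28471453. In the targeted gene, Clpx averaged 0.522 ± 0.174 CPM (counts scaled to library size) in ovulated CKO libraries and 22.2 ± 1.32 CPM in ovulated WT libraries (SD, n = 3 each). In GV oocytes Clpx averaged 0.961 ± 0.333 CPM in CKO and 38.6 ± 8.64 CPM in WT libraries (SD, n = 4 each). Summed markers of oocytes reached 16041 to 18811 CPM in ovulated CKO, 17492 to 20607 CPM in ovulated WT, 30704 to 64502 CPM in GV CKO and 32946 to 53046 CPM in GV WT libraries. Of 18 markers of granulosa and cumulus cells, 13 were in both tables, and their sum was between 47.7 and 130 CPM in all libraries. The count of genes called between ovulated genotypes depended on single libraries. Without ovulated CKO replicate 3, 201 genes passed, and with all libraries 1 gene passed. That count rests on the difference from WT, so it does not measure how far replicate 3 lies from its group. Chi-square per degree of freedom, a measure of how far the counts of 2 libraries differ, was 71.7 between ovulated CKO replicates 1 and 2. It was 144 and 161 for the pairs with replicate 3, and 125 to 325 between ovulated WT libraries.

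The levels of the 4 genes between each other were compared in FPKM, which is counts per length and library size. In ovulated CKO oocytes Astl averaged 226 ± 38.7 FPKM, Izumo1r 60.1 ± 25.3, Cd9 25.8 ± 16.7 and Cd81 1.20 ± 0.684 FPKM (SD, n = 3). In ovulated WT oocytes Astl averaged 143 ± 59.8 FPKM, Izumo1r 42.8 ± 10.5, Cd9 13.9 ± 4.10 and Cd81 2.57 ± 0.725 FPKM (SD, n = 3). Astl was the highest of the 4 in each of these 6 libraries, and its ranges did not overlap those of Izumo1r. In GV CKO oocytes Izumo1r averaged 272 ± 45.1 FPKM, Astl 254 ± 134, Cd9 158 ± 31.8 and Cd81 0.915 ± 0.203 FPKM (SD, n = 4). In GV WT oocytes Astl averaged 343 ± 127 FPKM, Izumo1r 295 ± 13.6, Cd9 209 ± 66.4 and Cd81 2.12 ± 1.07 FPKM (SD, n = 4). Astl and Izumo1r overlapped in both GV groups, and each was the higher in 2 of 4 libraries of each group, so their order there did not hold against the spread.

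By mean FPKM, Astl ranked 413 and 626 among 16903 genes in ovulated CKO and WT oocytes, and 395 and 272 among 18076 genes in GV CKO and WT oocytes. Izumo1r ranked 1507 and 1857 in ovulated CKO and WT oocytes, against 372 and 332 in GV CKO and WT oocytes. Cd81 lay near the middle of all listed genes in each group, with ranks between 7174 and 9162. The tetraspanins thus differed widely in level: mean Cd9 was 21.5 times mean Cd81 in ovulated CKO oocytes and 5.38 times in ovulated WT oocytes. In GV oocytes mean Cd9 was 172 times mean Cd81 in CKO and 98.4 times in WT oocytes, and no Cd9 value overlapped a Cd81 value in any group.

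**Figure D1:**
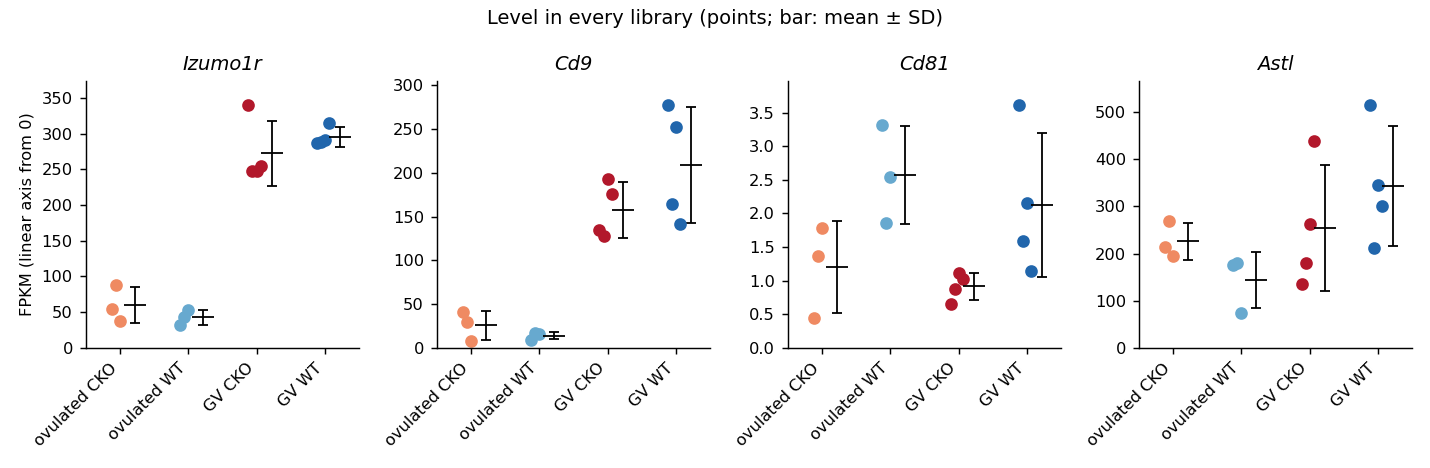
FPKM (linear axes from 0) of each gene in every library, as points by group, with the mean and SD as black bars (3 ovulated and 4 GV libraries a group). Izumo1r and Cd9 are low in both ovulated groups and high in both GV groups, whereas Cd81 stays between 0.45 and 3.61 FPKM in all 14 libraries.

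The stages were compared to see which of the 4 mRNAs differ between ovulated and GV oocytes of one genotype. In CKO oocytes Izumo1r and Cd9 fell, and in WT oocytes Izumo1r, Cd9 and Astl fell. Cd81 did not pass in either genotype. The fall covered 2 of 4 genes in CKO oocytes, where edgeR called 29.9% of 13158 genes lower, and 3 of 4 in WT oocytes, where it called 34% lower; with so many genes lower at ovulation, these counts are not particular to the 4 genes. With total counts in place of TMM scaling the same genes passed in both genotypes. Stage and count table cannot be told apart, and in such libraries fewer cells and less RNA per cell cannot be told apart.

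For Izumo1r, the sperm receptor, the ovulated CKO libraries held 54.7, 87.63 and 37.98 FPKM, against 339.61, 247.15, 247.07 and 254.86 FPKM in GV CKO libraries. Every ovulated CKO library lay below every GV CKO library. Of 9499 genes with a mean of at least 1 FPKM, 22% likewise lay lower in CKO oocytes without overlap. The fitted log2 fold change was -3.03 ± 0.321 (SE), an 8.16-fold lower level, with an adjusted p of 4.42e-06 in edgeR's quasi-likelihood test. In WT oocytes Izumo1r held 32.36, 42.71 and 53.4 FPKM in ovulated libraries, against 286.29, 288.68, 290.78 and 315.47 FPKM in GV libraries. The groups again did not overlap, and 31.2% of 9499 genes lay lower in WT oocytes without overlap. The log2 fold change was -3.26 ± 0.325 (SE), with an adjusted p of 1.24e-06 in edgeR. Izumo1r lay at percentile 5.76 of all log2 fold changes in CKO and 10.6 in WT oocytes, counted from the largest fall.

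Cd9, the fusion tetraspanin, had the largest fitted fall of the 4 in both genotypes. In CKO oocytes its order against Izumo1r did not hold against the spread. On leaving out single libraries the log2 fold change there was -3.75 to -2.85 for Cd9 and -3.30 to -2.81 for Izumo1r. Ovulated CKO libraries held 40.59, 29.14 and 7.63 FPKM, against 134.48, 127.34, 192.99 and 175.89 FPKM in GV CKO libraries. The groups did not overlap, and the log2 fold change was -3.24 ± 0.417 (SE), 9.45-fold lower, with an adjusted p of 1.79e-05 in edgeR. In WT oocytes Cd9 held 9.17, 16.79 and 15.61 FPKM in ovulated libraries, against 277.37, 164.11, 253.09 and 141.26 FPKM in GV libraries, again with no overlap. The log2 fold change was -4.19 ± 0.439 (SE), 18.3-fold lower, with an adjusted p of 1.79e-06. Replicates 1 and 2 of the ovulated CKO group lay above all ovulated WT libraries, and replicate 3 lay below them all.

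Astl, the zona protease, had smaller fitted changes than Izumo1r and Cd9 and passed in WT but not in CKO oocytes. In CKO oocytes it held 213.63, 269.18 and 194.64 FPKM in ovulated libraries, against 135.81, 180.92, 261.78 and 438.79 FPKM in GV libraries. These groups overlapped, and the log2 fold change of -0.86 (95% interval -1.77 to 0.05) did not pass, with an adjusted p of 0.0999 in edgeR. The 4 GV CKO libraries spread over a wide range: without replicate 4, the highest, the log2 fold change was -0.13, and with libraries scaled by total count it was -0.16. In WT oocytes Astl held 175.59, 180.09 and 74.29 FPKM in ovulated libraries, against 514.7, 211.46, 345.68 and 300.8 FPKM in GV libraries, with no overlap. Its log2 fold change there was -1.56 ± 0.444 (SE), 2.95-fold lower, with an adjusted p of 0.00569. Whether Astl changed less in CKO than in WT oocytes is the test of the stage difference of the CKO effect, which did not pass, with an adjusted p of 0.803.

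For Cd81 the ovulated CKO libraries held 0.45, 1.36 and 1.79 FPKM, against 0.65, 0.87, 1.11 and 1.03 FPKM in GV CKO libraries. In WT oocytes Cd81 held 3.31, 1.86 and 2.55 FPKM in ovulated libraries, against 3.61, 1.59, 2.15 and 1.14 FPKM in GV libraries. The stages overlapped in both genotypes. The log2 fold change was -0.19 (95% interval -1.22 to 0.84) in CKO oocytes, which turned to 0.41 when libraries were scaled by total count, and 0.07 (95% interval -0.92 to 1.06) in WT oocytes.

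That scaling moved the median log2 fold change of all genes to 0.45 in CKO oocytes, against -0.14 with TMM, and to 0.26 in WT oocytes, against -0.08 with TMM. With TMM 46.3% of the genes called in CKO oocytes were higher, and with total counts 67.5%. Relative to the median of all genes, Izumo1r lay at -2.82 with total counts and -2.89 with TMM in CKO oocytes, and Cd9 at -3.03 and -3.10. Without that reference the fold in CKO oocytes was smaller with total counts, at 5.18-fold lower for Izumo1r and 5.99-fold lower for Cd9, and both still passed.

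The next comparison asked whether loss of Clpx altered the 4 mRNAs at either stage. None passed at an adjusted p of 0.05. edgeR called 0.0083% of 12044 genes in ovulated oocytes and 0.0245% of 12265 genes in GV oocytes, so a count of 0 of 4 is what most genes gave. At an unadjusted p below 0.05, there was 1 of the 4 in GV oocytes, Cd81, beside 5.74% of all genes, and none in ovulated oocytes, beside 7.76% of all genes. DESeq2 called none of the 4 at either stage. The 95% intervals bound what these libraries allow.

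Cd81 had lower values in CKO oocytes at both stages without passing the test. In FPKM all 3 ovulated CKO libraries (0.45 to 1.79) lay below all 3 ovulated WT libraries (1.86 to 3.31), as did 3.84% of 9265 genes with a mean of at least 1 FPKM. All 4 GV CKO libraries (0.65 to 1.11) lay below all 4 GV WT libraries (1.14 to 3.61), as did 3.03% of 9145 genes. After TMM scaling the groups overlapped at both stages, with 0.535 to 2.61 CPM in ovulated CKO against 2.19 to 4.97 CPM in ovulated WT, and 0.775 to 1.77 CPM in GV CKO against 1.73 to 3.79 CPM in GV WT libraries. The log2 fold change was -1.19 in ovulated oocytes (95% interval -2.61 to 0.22, edgeR adjusted p = 0.705) and -0.96 in GV oocytes (95% interval -1.72 to -0.19, edgeR unadjusted p = 0.0184, adjusted p = 0.834).

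A contrast of CKO against WT averaged over both stages, added after the values had been seen, gave Cd81 a log2 fold change of -1.08 ± 0.341 (SE), an unadjusted p of 0.00574 and an edgeR adjusted p of 0.188. That contrast called 0.038% of 13158 genes, while 13% had an unadjusted p below 0.05. Without the ovulated CKO library of replicate 3 the adjusted p of Cd81 was 0.0348, and 733 genes were called in place of 5. Cd81 is also a gene of few counts: 15, 47 and 61 in ovulated CKO, 116, 61 and 86 in ovulated WT, 22, 31, 37 and 36 in GV CKO and 130, 57, 74 and 40 in GV WT libraries. The exact Poisson 95% interval of the lowest count, 15, was 8.40 to 24.7, and that of the highest, 130, was 109 to 154, for counting error only.

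Cd81 is expressed in many somatic cells, so the markers of granulosa and cumulus cells are given beside it. Their sum was 68.7, 70.1 and 109 CPM in ovulated CKO libraries, against 130, 66.8 and 120 CPM in ovulated WT libraries. In GV libraries it was 61.1, 68.5, 73.4 and 47.7 CPM in CKO, against 62.2, 81.1, 76.8 and 73.5 CPM in WT oocytes. The groups overlapped at both stages. Cyp19a1, aromatase, made most of each sum, at 31.0 to 105 CPM, while Fshr, the FSH receptor of granulosa cells, had at most 1.19 CPM. Without Cyp19a1, a split made after the values were seen, the other 12 markers summed to 20.4, 24.9 and 29.3 CPM in ovulated CKO libraries, against 24.5, 24.0 and 40.3 CPM in ovulated WT libraries, and these groups overlapped. In GV libraries the same 12 summed to 22.1, 22.6, 23.7 and 16.6 CPM in CKO, against 24.5, 36.1, 34.7 and 24.5 CPM in WT oocytes. Every GV CKO library thus lay below every GV WT library in this sum. Of these 12 markers only Nr5a2 separated the GV groups by itself, at 5.80 to 11.06 CPM in CKO against 11.12 to 15.8 CPM in WT libraries. It also had the highest median of the 12 in both GV groups. By median, Inha, Kitl, Ptgs2 and Pgr were higher in GV CKO than in GV WT libraries, and the rest of the 12 were lower. The sum is thus not a measure of all 12 alike, and its separation without Nr5a2 was not tested. Of 12265 single genes tested in GV oocytes, 2.4% lay lower in CKO libraries without overlap, in CPM scaled within the stage. The marker sums are scaled over 14 libraries, and that share does not measure how often a sum of 12 genes would separate.

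Of the granulosa and cumulus markers, 8 were tested at each stage and none passed between genotypes. In ovulated oocytes 3 of 8 had a positive log2 fold change, with a median of -0.25, and in GV oocytes 2 of 8, with a median of -0.28. Some markers were high in single libraries: in ovulated WT oocytes Gja1, a gap junction protein, reached 6.29 CPM in one library with a median of 0, and Inhba, an inhibin and activin subunit, reached 3.38 CPM with a median of 0.496 CPM. Markers of blood, endothelium, stroma and theca summed to 55.8, 60.6 and 76.9 CPM in ovulated CKO libraries, against 109, 45.9 and 66.5 CPM in ovulated WT libraries. In GV libraries they summed to 20.4, 34.8, 40.9 and 35.6 CPM in CKO, against 44.9, 32.2, 32.6 and 38.6 CPM in WT oocytes. Pecam1, an endothelial adhesion protein, made most of these sums, and the other 7 in both tables summed to at most 4.21 CPM in ovulated CKO, 9.03 CPM in ovulated WT, 2.09 CPM in GV CKO and 2.96 CPM in GV WT libraries. The part of such cells in the Cd81 result was not tested.

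Between genotypes the Cd9 log2 fold change came to 0.74 in ovulated oocytes (95% interval -0.31 to 1.80, edgeR adjusted p = 0.741) and of -0.17 in GV oocytes (95% interval -0.64 to 0.31, adjusted p = 0.906). The stage difference, the CKO effect in ovulated oocytes minus that in GV oocytes, was 0.95 (95% interval -0.15 to 2.06, adjusted p = 0.614) in a comparison in which edgeR called 0.0076% of 13158 genes and 0 of the 4. This value moved both ways with single libraries. Without ovulated CKO replicate 3 the stage difference of Cd9 rose to 1.35, with an edgeR adjusted p of 0.0659. Without ovulated CKO replicate 1 the stage difference fell to 0.45. In ovulated oocytes alone, the log2 fold change of Cd9 was 1.10 without replicate 3 and 0.27 without replicate 1.

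The zona pellucida transcripts were read beside Cd9 in the same libraries, both in CPM scaled over all 14 libraries. Zp1, Zp2 and Zp3 together held 879, 1053 and 288 CPM in the ovulated CKO libraries of replicates 1, 2 and 3, against 257, 254 and 263 CPM in ovulated WT libraries. Cd9 held 31.6, 20.8 and 6.56 CPM in the same ovulated CKO libraries, against 8.54, 12.1 and 13.5 CPM in ovulated WT libraries. Replicates 1 and 2 of the ovulated CKO group were above WT for both measures, while replicate 3 was above WT for the zona sum and below it for Cd9. In edgeR none of the 3 zona genes passed between genotypes in ovulated oocytes, with a median log2 fold change of 1.58 beside 0.00 for all genes. DESeq2 called Zp2 and Zp3 there.

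**Figure D2:**
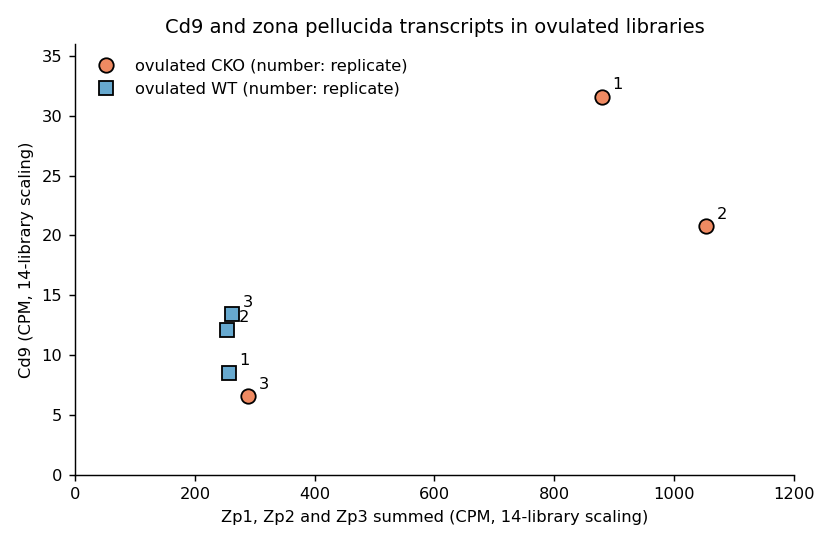
Cd9 against the sum of Zp1, Zp2 and Zp3, both in CPM scaled over all 14 libraries, on linear axes, in the 3 ovulated CKO libraries (circles) and the 3 ovulated WT libraries (squares), with replicate numbers. Ovulated CKO replicates 1 and 2 lie apart at 879 and 1053 CPM of zona transcripts, and replicate 3, at 288 CPM, lies by the WT libraries.

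Izumo1r and Astl did not pass between genotypes either. The log2 fold change of Izumo1r was 0.24 in ovulated oocytes (95% interval -0.47 to 0.95, edgeR adjusted p = 0.871) and 0.03 in GV oocytes (95% interval -0.48 to 0.54, adjusted p = 0.981), the second turning to -0.12 when libraries were scaled by total count, with a median of all genes of -0.14 against 0.02 with TMM. Astl gave 0.54 in ovulated oocytes (95% interval -0.21 to 1.30, adjusted p = 0.737) and -0.13 in GV oocytes (95% interval -1.04 to 0.77, adjusted p = 0.961). Its 3 ovulated CKO libraries (194.64 to 269.18 FPKM) lay above all ovulated WT libraries (74.29 to 180.09 FPKM), as did 6.14% of 9265 genes. After TMM scaling these groups overlapped, with 399 to 478 CPM in ovulated CKO and 160 to 414 CPM in ovulated WT libraries. The GV CKO and GV WT libraries overlapped. The stage difference was 0.23 for Izumo1r, -0.26 for Cd81 and 0.70 for Astl, with adjusted p between 0.803 and 0.958, and that of Cd81 turned to 0.10 with total counts.

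**Figure D3:**
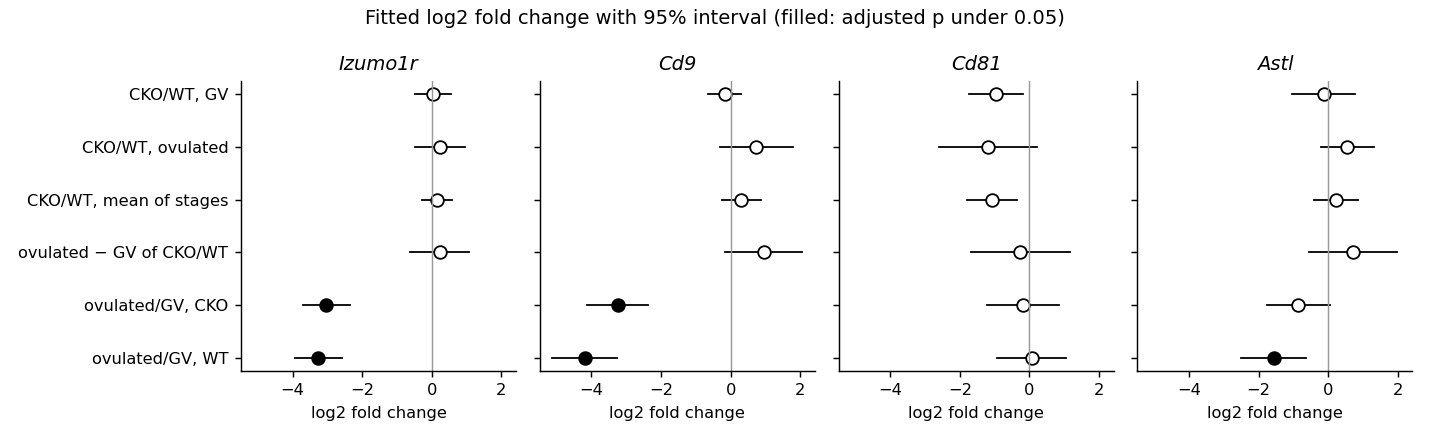
Fitted log2 fold change (horizontal axes) with its 95% interval for each gene in 6 comparisons; filled points passed at an adjusted p below 0.05. Filled points are seen only between stages, for Izumo1r and Cd9 in CKO and WT oocytes and for Astl in WT oocytes.

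Ratios within a library do not depend on its scaling, and 6 ratios among the 4 genes were formed from FPKM. One ratio at each stage had no overlap between genotypes, chosen here after the values were seen and given without a test. Cd81 over Astl was between 0.00211 and 0.00920 in ovulated CKO libraries, against 0.0103 to 0.0343 in ovulated WT libraries. Cd9 over Cd81 was between 146 and 207 in GV CKO libraries, against 76.8 to 124 in GV WT libraries. Both hold Cd81, the gene with the fewest counts, whose FPKM alone already lay lower in every CKO than in every WT library of a stage. They are thus not results apart from that of Cd81. How often ratios of other genes separate the genotypes was not counted.

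The other genes of these pathways were read by list. Across 6 lists with 108 genes, edgeR called none between genotypes, of 79 tested in ovulated and 81 tested in GV oocytes, nor for the stage difference, of 86 tested. At an unadjusted p below 0.05 these counts were 11 of 79 in ovulated oocytes, beside 7.76% of all genes, and 6 of 81 in GV oocytes, beside 5.74%. For the stage difference they were 13 of 86, beside 9.16% of all genes. Between stages the lists differed in direction, and some of these directions depended on the scaling.

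Of 11 partners of tetraspanins and microvillus proteins tested, 8 rose and none fell in ovulated CKO against GV CKO oocytes, with a median log2 fold change of 1.40 beside -0.14 for all genes, where edgeR called 25.8% of all genes higher. In WT oocytes 10 rose and none fell, with a median of 1.38 beside -0.08, where 29.7% of all genes were called higher. Itgb1, an integrin beta subunit whose alpha partners bind tetraspanins, rose to 55.1 ± 5.11 CPM in ovulated CKO libraries (SD, n = 3), against 20.9 ± 5.25 CPM in GV CKO libraries (SD, n = 4; log2 fold change 1.40, edgeR adjusted p = 9.79e-05). Adam10, a sheddase whose traffic is governed by tetraspanins, rose to 169 ± 14.1 CPM in ovulated CKO libraries, against 40.6 ± 12.0 CPM in GV CKO libraries (log2 fold change 2.05, adjusted p = 9.89e-05). The corresponding log2 fold changes in WT oocytes were 1.38 for Itgb1 and 1.99 for Adam10, and both passed. These lists were chosen with earlier results known, and nothing particular to them is drawn from the counts.

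Among 19 other tetraspanins tested, 8 fell and 2 rose in CKO oocytes at ovulation, and 13 fell and 2 rose in WT oocytes. Of all genes, 29.9% were called lower and 25.8% higher in CKO oocytes, and 34% lower and 29.7% higher in WT oocytes. With total counts 4 fell and 2 rose in CKO oocytes, where the median of the list turned to 0.11, against -0.53 with TMM, and 11 fell and 2 rose in WT oocytes. That scaling called 17.2% of all genes lower and 35.6% higher in CKO oocytes, and 26.7% lower and 34.0% higher in WT oocytes. Tspan5 and Tspan9 were the pair that rose. Tspan5 had log2 fold changes of 1.86 in CKO and 1.94 in WT oocytes, and Tspan9 had 2.13 in CKO and 1.50 in WT oocytes. Tspan31 fell to 4.33 ± 1.43 CPM in ovulated CKO libraries, against 31.1 ± 4.84 CPM in GV CKO libraries, a log2 fold change of -2.84 (adjusted p = 7.69e-06 in edgeR), and its log2 fold change in WT oocytes was -3.30. Tspan13 fell in CKO oocytes with a log2 fold change of -1.34 and an adjusted p of 2.09e-04, which with total counts was -0.78, adjusted p = 0.0736, and in WT oocytes with -0.96, adjusted p = 0.00204. Tspan1 fell in both genotypes, with log2 fold changes of -2.02 in CKO and -2.76 in WT oocytes.

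JUNO is held by a GPI anchor, and the genes that make it were read next. Of 26 genes of GPI anchor synthesis and remodelling tested, 7 rose and 9 fell at ovulation in CKO oocytes, and 9 rose and 13 fell in WT oocytes; with total counts 8 rose and 7 fell in CKO, and 9 rose and 9 fell in WT oocytes. With TMM these were 26.9% higher and 34.6% lower in CKO oocytes, near the 25.8% and 29.9% of all genes. In WT oocytes they were 34.6% higher and 50% lower, beside 29.7% and 34% of all genes. With total counts 35.6% of all genes were called higher and 17.2% lower in CKO oocytes, and 34.0% higher and 26.7% lower in WT oocytes. Pigp and Pigq, subunits of the enzyme that starts the anchor, went opposite ways in both genotypes. Pigp had log2 fold changes of 1.44 in CKO and 1.90 in WT oocytes (edgeR adjusted p = 3.52e-04 and 2.20e-05), and Pigq had -1.72 and -3.08 (adjusted p = 4.01e-04 and 3.41e-06). Pgap1, which removes an acyl chain from the finished anchor, rose in both genotypes, with log2 fold changes of 1.74 in CKO and 1.87 in WT oocytes. Pigk, the catalytic subunit of the transamidase that attaches the anchor, fell in both, with -1.89 in CKO and -1.59 in WT oocytes, and Pigu of the same complex fell with -1.74 in CKO and -1.71 in WT oocytes.

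On the side of Astl, the zona genes fell under both scalings, and the direction of the cortical granule genes depended on the scaling. Zp1, Zp2 and Zp3, which encode the coat that ovastacin acts on, fell in both genotypes, with a median log2 fold change of -4.03 in CKO and -5.38 in WT oocytes. Zp3 averaged 110 ± 7.08 CPM in ovulated WT libraries (SD, n = 3), against 4583 ± 667 CPM in GV WT libraries (SD, n = 4). Of 24 genes of cortical granule exocytosis tested, 2 rose and 7 fell in each genotype with TMM, but with total counts 5 rose and 3 fell in CKO and 7 rose and 4 fell in WT oocytes. With TMM that is 8.33% higher and 29.2% lower in each genotype. Of all genes, TMM called 25.8% higher and 29.9% lower in CKO oocytes, and 29.7% higher and 34% lower in WT oocytes. Total counts called 35.6% of all genes higher and 17.2% lower in CKO oocytes, and 34.0% higher and 26.7% lower in WT oocytes. Napa, the SNARE adaptor alpha-SNAP, fell with log2 fold changes of -3.43 in CKO and -4.65 in WT oocytes. Padi6, an oocyte cytoplasmic lattice protein, fell with -3.91 in CKO and -4.33 in WT oocytes, and Vamp8, a SNARE of endosomes and secretory granules, fell with -2.98 in CKO and -4.40 in WT oocytes.

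The genes that rose on the cortical granule list with TMM were Marcks, an actin cross-linker that protein kinase C releases from the membrane, and Prkcb, a protein kinase C, and both were low. Marcks averaged 4.25 ± 1.68 CPM in ovulated WT libraries, against 0.707 ± 0.280 CPM in GV WT libraries. Prkcb averaged 4.86 ± 3.39 CPM in ovulated WT libraries, against 2.10 ± 0.280 CPM in GV WT libraries, with an adjusted p of 0.0217 in edgeR and of 0.0803 with limma-voom; without ovulated WT replicate 1 its log2 fold change was 0.50, adjusted p = 0.302. Among folate receptor and astacin relatives, 3 of 8 were tested. Fetub, the fetuin-B inhibitor of ovastacin, fell to 7.13 ± 1.87 CPM in ovulated WT libraries, against 108 ± 13.0 CPM in GV WT libraries, with log2 fold changes of -2.52 in CKO and -3.92 in WT oocytes. Mep1b, an astacin-family protease, fell with -2.46 in CKO and -4.03 in WT oocytes, and Tll1, another, rose with 1.64 in CKO and 1.88 in WT oocytes.

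**Figure D4:**
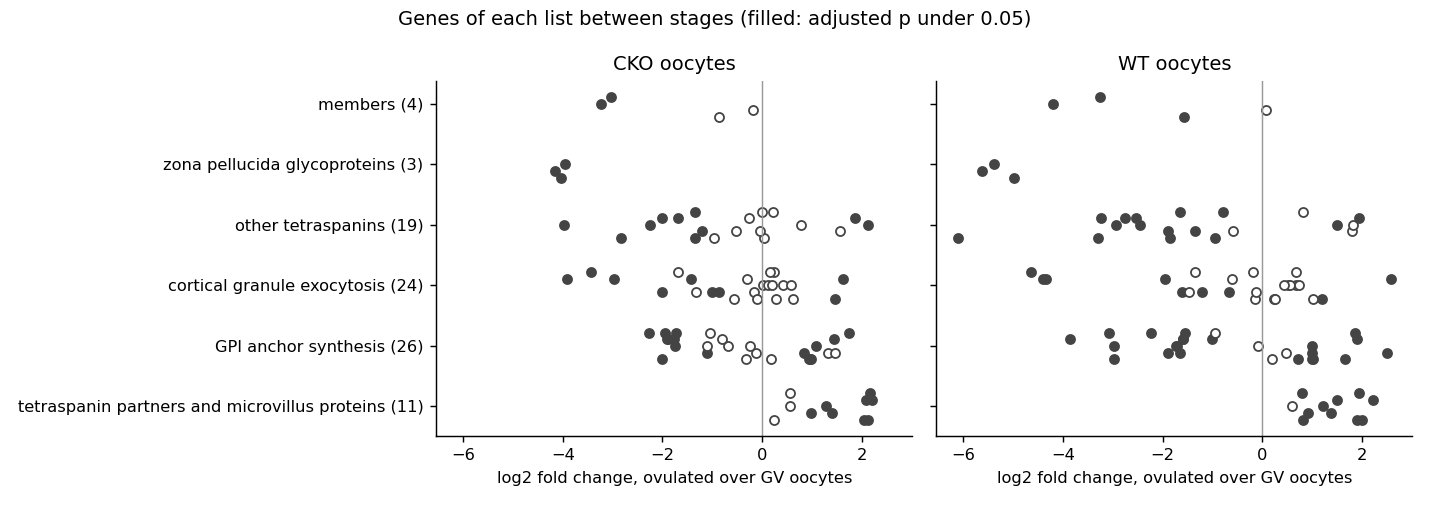
Log2 fold change of ovulated over GV oocytes (horizontal axes) for each tested gene of 6 lists in CKO (left) and WT oocytes (right), with the number tested in brackets; filled points passed at an adjusted p below 0.05, and vertical offsets only separate points. Points of the tetraspanin partners lie right of 0 in both genotypes, and those of the zona glycoproteins lie left of it.

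The genes with the most similar profiles were sought over the 14 libraries by the root mean square difference of log2 CPM after subtracting each gene's mean, among genes with a mean of at least 10 CPM. These likenesses are descriptions and share the difference between stages. For Izumo1r the closest were Akr1a1, an aldehyde reductase (0.24), Fbp1, the gluconeogenic fructose bisphosphatase (0.25), and Eif3d, a translation initiation subunit (0.27), against a median of 1.70 over 6561 genes. For Cd9 they were Otub2, a deubiquitinase (0.20), Mecr, an enzyme of mitochondrial fatty acid synthesis (0.23), and Hmox2, a heme oxygenase (0.25), against a median of 2.09. The likeness was measured over the same libraries, so shared levels in a group follow from the choice: Otub2, for one, averaged 10.2 ± 5.78 CPM in ovulated CKO libraries, against 4.78 ± 0.955 CPM in ovulated WT libraries (SD, n = 3 each).

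Izumo1r and Cd9 differed from each other by 0.61 on this scale, the smallest value among the 6 pairs of the 4 genes, and Cd9 and Cd81 by 2.13, the largest. For Cd81 the closest genes were Scarb1, a lipoprotein receptor (0.44), Mutyh, a DNA glycosylase (0.48), and Traip, a ubiquitin ligase (0.48), against a median of 1.09. Scarb1 averaged 18.3 ± 5.52 CPM in ovulated CKO and 24.2 ± 8.19 CPM in ovulated WT libraries, and 16.1 ± 4.19 CPM in GV CKO and 25.8 ± 6.95 CPM in GV WT libraries. For Astl they were Gps1, a COP9 signalosome subunit (0.37), Hspa5, the endoplasmic reticulum chaperone BiP (0.37), and Fam216a (0.41), against a median of 1.13. The matches of Cd81 and Astl were looser than those of Izumo1r and Cd9. Cd81 itself held 0.465 to 4.28 CPM, below the minimum mean of 10 CPM set for the genes compared. The part of counting error in its distances was not tested.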

How the data were processed

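RNA-seq libraries were made with SMART-Seq2, a full-length cDNA method, from cells in lysis buffer, per the labels' protocols. The authors deposited, for each stage, expected counts per gene (14.4% to 16.3% of values were fractional) and FPKM values, which are scaled to gene length and library size. Mouse build mm10 is named in the submitters' processing notes; the aligner, counting tool and annotation are not given in the sources used here.

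Counts were rounded and tested with edgeR 4.0.16 in R 4.3.3 (TMM scaling, the quasi-likelihood F-test with robust dispersions, and genes kept by filterByExpr at a count minimum of 10), within a stage for genotypes and over 14 libraries and genes of both tables for other comparisons. P-values were adjusted over all genes by Benjamini-Hochberg, with a threshold of 0.05. CPM values use TMM scaling within a stage for genotype comparisons of single genes, and over 14 libraries for stage comparisons, profiles, marker and list sums, and the Cd9 values set beside the zona sum. The test was checked on simulated data, but the outcome is not given here and no result rests on it. Intervals are 95%, and Poisson intervals cover counting error only. DESeq2, limma-voom, limma 3.58.1 on log2(FPKM + 1), other scalings and filters, a replicate block and leaving out each library were alternatives. Replicates differed far beyond counting error (18 pairs, chi-square per degree of freedom 40.5 to 325).

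The 4 genes and the lists were chosen with earlier results of these data known. The genes were named by rule: the 4 members, up to 2 called genes per direction from each list, and the 3 genes most like each member. Sequences came from RefSeq and GENCODE on GRCm38.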

Additional observations from a re-analysis of the deposited data

Results flagged for a closer look

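Izumo1r had a library far from the rest in both GV groups when read in FPKM. In GV CKO oocytes replicate 1 held 339.61 FPKM and the other libraries 247.07 to 254.86 FPKM, a gap of 0.916 of the group's range. In GV WT oocytes replicate 4 held 315.47 FPKM and the others 286.29 to 290.78 FPKM, a gap of 0.846 of the range, where the critical value of Dixon's test for 4 samples is 0.829. In TMM-scaled CPM neither group reached it: the gap in GV CKO oocytes, 0.651, was that of replicate 3, the lowest, and that in GV WT oocytes, 0.558, was that of replicate 4, the highest. The coefficient of variation of Izumo1r in GV WT libraries was 4.59% in FPKM and 25.0% in CPM. Chance flags about 1 in 20 such groups, and 8 sets of a gene and a group were tested, each in 2 units.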

How the results depend on the processing

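Of 480 values of the 4 genes under alternatives, 454 kept their direction and their side of the threshold, 25 changed direction, all in results that had not passed, and 1 crossed the threshold. In GV oocytes CKO against WT for Izumo1r became -0.12 with total counts and -0.13 with each of the 3 FPKM fits. For Cd81 the stage difference became 0.10 with total counts, and the CKO stage change became 0.41 with total counts, 0.15 on log2(FPKM + 1), with or without a filter, and 0.20 on log2(FPKM + 0.1). Leaving out one library at a time gave, for GV CKO against WT, -0.0599 to 0.206 (Izumo1r) and -0.76 to 0.11 (Astl), and for ovulated CKO against WT -0.00654 to 0.445 (Izumo1r). The stage difference lay at -0.0395 to 0.473 (Izumo1r) and -0.76 to 0.17 (Cd81), the stage change of Cd81 at -0.72 to 0.22 in CKO and -0.25 to 0.35 in WT oocytes, and the average of both stages at -0.0922 to 0.350 (Astl) and -1.33 to -0.86 (Cd81). Causes were not tested.

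Counts of genes called moved more. In GV oocytes DESeq2 called 33 and leaving out libraries gave 3 to 6. In ovulated oocytes DESeq2 called 119, the fit of 14 libraries 64 and limma on unfiltered log2(FPKM + 1) 0, with 1 to 201 on leaving out libraries. For the stage difference DESeq2 called 64, limma-voom and the 3 FPKM fits called 0, while edgeR gave 9.16% of genes an unadjusted p below 0.05, and leaving out libraries gave 0 to 498. The average of both stages, added after seeing the data with all its alternatives, called 314 with DESeq2, 9 without a filter, 3 with total counts and on log2(FPKM + 1) and log2(FPKM + 0.1), and 3 to 733 on leaving out libraries.

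Libraries of one replicate number deviated together in some pairs only (r from -0.300 to 0.646 in GV and -0.321 to 0.469 in ovulated oocytes). In GV oocytes CKO replicates 2, 3 and 4 correlated best with the WT library of their own number, and replicate 1 did not. In ovulated oocytes CKO replicate 2 did, and replicates 1 and 3 did not. Whether the numbers pair samples is not settled by these values, and the main test used no pairing. With the replicate block, 3 genes were called in GV oocytes, 1 in ovulated oocytes, 0 for the stage difference and 3 for the average of both stages. Cd81, with 15 to 130 counts a library, is the gene whose values depth limits.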
